A study of Mus musculus with 8 samples.

Results

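miR-22 and miR-22* are the 2 mature strands cut from the mouse Mir22 hairpin, and they were followed here in skeletal muscle of diabetic and control mice. They were taken by name, as the 2 of 567 mouse miRNAs on the array whose entry read mmu-miR-22 or mmu-miR-22*. The pair was chosen by its measured levels on these same arrays, control against diabetic, so that contrast is described below and not tested. The study set the obese, diabetic C57BL/KsJ db/db mouse, which lacks a working leptin receptor, against normal C57BL/KsJ db+ animals. Each group held 4 samples, and 100 ng of total RNA per sample was labelled with Cy3 and hybridised to its own array. Group membership followed the sample titles; the strain entry of every sample names the opposite genotype (db/db for control, db+ for diabetic). The labels used here give no age, sex or named muscle. They also do not say that the samples came from separate mice, so the spread below is that between these samples and may be technical.

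miR-22 is a conserved miRNA that is abundant in heart and skeletal muscle. A miRNA guides the Argonaute protein to mRNAs that pair with its seed, the bases near its 5′ end, and lowers their translation and stability. For miR-22 the known targets include the mRNAs of HDAC4, a histone deacetylase that holds back muscle genes, and of SIRT1, a deacetylase that senses the energy state of the cell. miR-22 is known for its part in hypertrophy of the heart, and it has been tied to fat and glucose metabolism.

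Both strands are shown because the probes of the array read them separately and because their seeds differ. The sequences come from RefSeq, build GRCm38.p6, with the seed (bases 2 to 8) in capitals; current names are miR-22-3p for miR-22 and miR-22-5p for miR-22*.
miR-22: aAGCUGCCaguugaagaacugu
miR-22*: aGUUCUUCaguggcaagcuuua
Each strand has 22 bases. The seed of miR-22 would pair with GGCAGCU in an mRNA, and that of miR-22* with GAAGAAC. Of 1674 distinct mature mouse sequences in the RefSeq table, each seed was found in 1, its own, so neither strand has a seed family there. The hairpin has 95 bases and lies on the + strand at chr11:75463716-75463810 of GRCm38.p6. It is printed with the 2 strands in capitals, miR-22* first and miR-22 second, to show how they face each other.
Mir22 hairpin: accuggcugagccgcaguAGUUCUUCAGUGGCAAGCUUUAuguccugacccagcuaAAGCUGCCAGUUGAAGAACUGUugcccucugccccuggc
In the fold predicted by RNAfold, 19 of the 22 bases of miR-22 paired with bases of miR-22*, all 7 seed bases were paired, and 16 unassigned bases separated the strands. In the RefSeq gene table Mir22 lies within the span of Mir22hg, a long non-coding RNA gene, between the protein-coding genes Wdr81 and Tlcd2.

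miR-22 was bright on every array. Its level was read by 2 probes, A_54_P1309 and A_54_P1310, each printed as 10 spots per array. Brightness is given as background-subtracted intensity in arbitrary units. Every one of the 76 spots of A_54_P1309 and the 77 spots of A_54_P1310 that were not outliers was well above background, and no spot was saturated. Between spots of 1 probe on 1 array, the coefficient of variation had a median of 8.81% for A_54_P1309 and of 7.28% for A_54_P1310. The mean of the 2 probes was 3456, 4406, 4088 and 4312 on control 1 to control 4, and 4949, 6003, 5045 and 3032 on diabetic 1 to diabetic 4. Before any scaling, diabetic 4 was therefore the dimmest for miR-22 and diabetic 2 the brightest. The groups overlapped, because diabetic 4 lay below all 4 control arrays while the other 3 diabetic arrays lay above them.

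Arrays also differed in brightness as a whole. Each array was therefore divided by its own 75th percentile, taken over 152 probes that every array detected (a probe is detected where at least 50% of its spots are well above background). That percentile was 308, 618, 336 and 327 on control 1 to control 4. It was 359, 479, 413 and 219 on diabetic 1 to diabetic 4. Control 2 was the brightest array and diabetic 4 the dimmest, and this order is not that of the miR-22 intensities, in which diabetic 1, diabetic 2 and diabetic 3 stood above control 2.

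**Figure D1:**
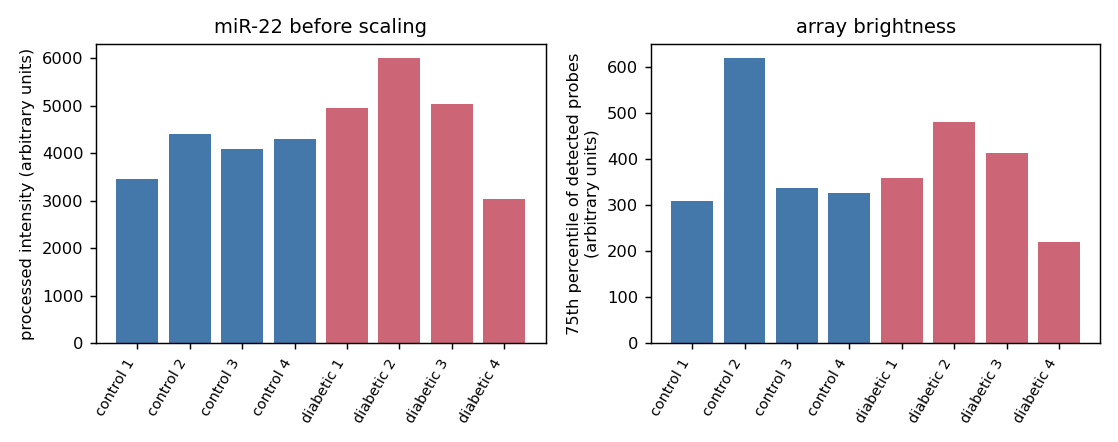
Left, miR-22 intensity before scaling, as the mean of its 2 probes, and right, the 75th percentile of detected probes, both in arbitrary units with 1 bar per array (blue control, red diabetic). Control 2 has the highest percentile, 618, but a miR-22 intensity of 4406, below diabetic 1, diabetic 2 and diabetic 3.

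After scaling, the log2 level of miR-22 was 3.49, 2.83, 3.61 and 3.72 on control 1 to control 4, and 3.79, 3.65, 3.61 and 3.79 on diabetic 1 to diabetic 4. Control 2 stood lowest, and the other 7 arrays lay between 3.49 and 3.79. The groups overlapped: control 4 was above diabetic 2 and diabetic 3, and control 3 was just below diabetic 3. Among these 7 arrays, neighbours in the order of levels differed by less than the SD of either group, apart from control 1 and control 3, whose step was larger than the SD of the diabetic arrays. The mean was 3.41 ± 0.40 for control and 3.71 ± 0.09 for diabetic muscle (SD, n = 4). The log2 difference, diabetic minus control, was 0.30 with a limma standard error of 0.23, or 1.23-fold. It was smaller than the SD of the control arrays. No p-value is given for it, for the reason stated above. Of the 126 tested miRNAs, 7.94% had all diabetic arrays above all control arrays and 8.73% were separated in either direction; miR-22 was not among them.

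Much of the difference in scaled levels rested on control 2. Before scaling, control 2 had the highest miR-22 intensity of the controls, 4406. It became the lowest array after division by its percentile, 618. Leaving it out of the unscaled levels was not tried. Without control 2, the 3 remaining scaled control arrays averaged 3.61 ± 0.12 (SD, n = 3) and the log2 difference was 0.10. Without control 2 and diabetic 4, the brightest and the dimmest array, it was 0.08. Leaving out any other array gave 0.27 to 0.40. The difference was positive in all 23 alternatives tried. All of them reuse the same 8 arrays, and some, such as the choice of tested miRNAs, cannot change its value. The shared sign is therefore no separate support. The difference was largest, 0.62, when the percentile was taken over all mouse probes. That setting moved the median log2 difference of the 126 tested miRNAs from −0.06 to 0.26. Relative to that median, the difference of miR-22 was 0.36 in both settings, 0.32 with no scaling, 0.07 with quantile normalization and 0.23 without control 2, where the median itself was −0.13.

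**Figure D2:**
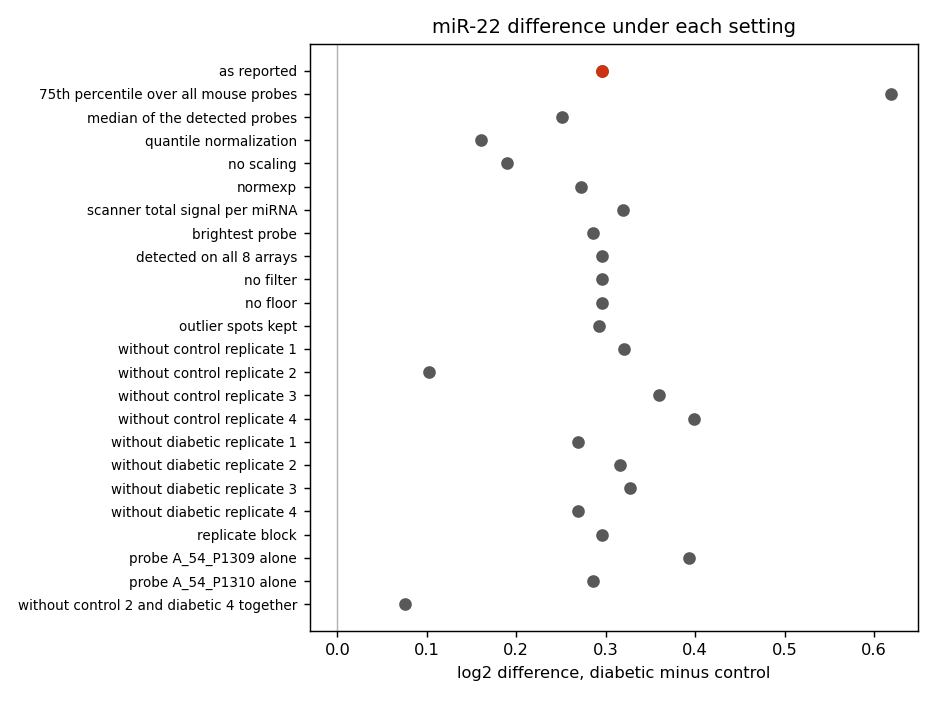
Log2 difference of miR-22, diabetic minus control, as reported (red) and in each alternative (grey); 1 point per setting and a line at 0. All points lie above 0, from 0.08 without control 2 and diabetic 4 to 0.62 with all mouse probes in the percentile.

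The 2 probes of miR-22 moved together across arrays but differed in how tightly the diabetic arrays grouped. For A_54_P1309 the log2 level was 1.002, 0.26, 1.08 and 1.18 on control 1 to control 4, and 1.28, 1.28, 1.28 and 1.26 on diabetic 1 to diabetic 4. All 4 diabetic arrays of this probe lay above all 4 control arrays, by a margin of less than 0.1 between control 4 and diabetic 4. Of the 152 probes detected on all arrays, 9.87% were separated in this direction and 0.658% in the other. That probe's log2 difference was 0.39, and 0.19 without control 2, with an SD of 0.42 among controls and of 0.010 among diabetic arrays. For A_54_P1310 the log2 level was 4.35, 3.71, 4.47 and 4.59 in the same order of controls, then 4.65, 4.50, 4.46 and 4.66 in that of the diabetic arrays. Here the groups overlapped, as for the mean, and the log2 difference was 0.29, or 0.09 without control 2. Because intensities were averaged on the linear scale, A_54_P1310 made up 90.1% to 91.6% of the summed signal, so the level of miR-22 is mostly that of this probe.

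**Figure D3:**
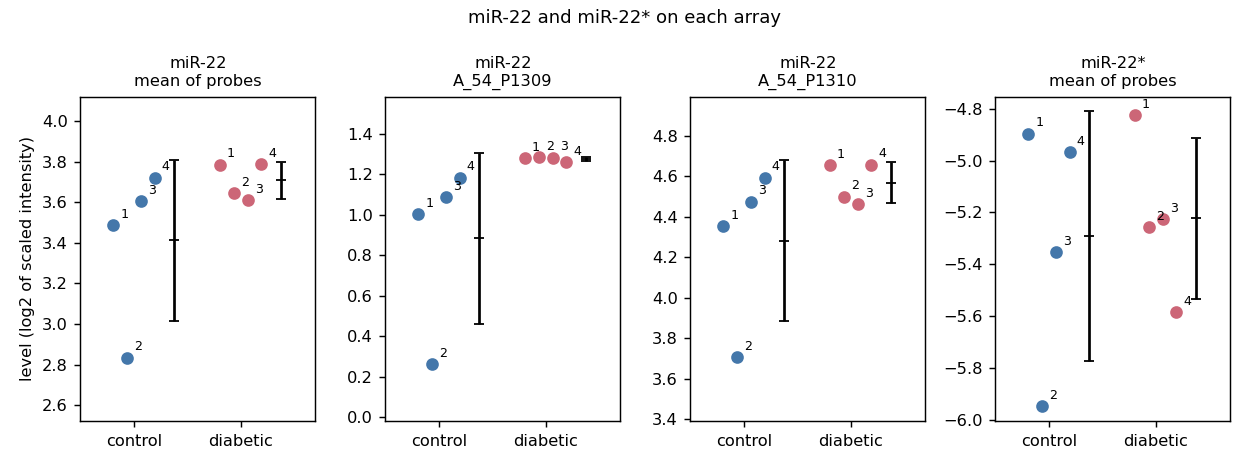
Log2 scaled level of miR-22 (mean of its probes, then each probe) and of miR-22*, with 1 point per array, numbered by replicate (blue control, red diabetic), and bars for mean ± SD (n = 4). Axes do not share a range; control 2 is the lowest point for miR-22 in each of its 3 panels, at 2.83 for the mean of the probes.

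miR-22*, the other strand of the hairpin, was at the edge of detection. The mean intensity of its 2 probes was 10.3, 9.46, 8.20 and 10.4 on control 1 to control 4. On diabetic 1 to diabetic 4 it was 12.7, 12.5, 11.0 and 4.57. Probe A_54_P3451 had 22 of 80 spots well above background, and A_54_P3450 had 1 of 75. On the control arrays A_54_P3451 had 3, 0, 0 and 3 such spots of 10. By the 50% rule miR-22* was detected on 0 of 4 control arrays and on 2 of 4 diabetic arrays, diabetic 1 (9 of 10 spots of A_54_P3451) and diabetic 3 (5 of 10 spots). It was not well above background on any control array, and for its brighter probe the diabetic mean lay below the bound set by the lowest detected signals of the control arrays, so no fold is given. Its log2 level was −4.90, −5.95, −5.35 and −4.97 on control 1 to control 4, and −4.82, −5.26, −5.23 and −5.59 on diabetic 1 to diabetic 4. Control 2 was at −5.95, the floor to which lower levels were raised. The groups overlapped, with means of −5.29 ± 0.48 for control and −5.22 ± 0.31 for diabetic muscle (SD, n = 4). The measured difference, 0.07, was negative without control 2 (−0.15) and without diabetic 1 (−0.06), and in 2 other of 23 alternatives. miR-22* was below the minimum of 4 arrays for the test, so of the 2 strands only miR-22 was in the tested table.

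Among the 126 miRNAs tested, which are those detected on at least 4 arrays, the median absolute log2 difference was 0.24, and 78 had a smaller absolute difference than miR-22. Limma called 4.76% of the tested miRNAs at an adjusted p under 0.05, which is 6 higher and 0 lower on the diabetic arrays; at an unadjusted p under 0.05 there were 8 higher and 13 lower. The count was 2 without control 1, control 2, diabetic 1, diabetic 2 or diabetic 3, and 10 without control 3. The split was 8 higher and 1 lower when all mouse probes entered the percentile, 5 and 2 with the median of detected probes, and 5 and 3 with normexp background correction. miR-22 varied on the control arrays about as much as a typical tested miRNA, with an SD of 0.40 against a median of 0.43. On the diabetic arrays its SD was 0.09 against a median of 0.23, the 17th lowest of 126.

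Control 2, on which much of the scaled miR-22 difference rested, also differed in the scaled levels of cell type markers. Muscle markers were present on every array: miR-1, miR-133a, miR-133b, miR-206 and miR-486 were detected on all 8. Of the slow-fibre miRNAs, miR-208b was detected on 4 and miR-499 on 0. The log2 of the summed level of the 7 muscle markers was 5.73 on control 2 and 6.29 to 6.75 on the other arrays. That sum is mostly miR-1, miR-133a and miR-133b, each lowest on control 2. Not every member was low: miR-206 was at 0.73 there, above control 1 (0.12) and all 4 diabetic arrays (−1.75 to 0.20), and miR-208b was at −4.23, above 5 other arrays. The sum of 6 leukocyte markers was 1.07 on control 2 and −2.05 to −0.33 elsewhere. On control 2 most of it was miR-223, a myeloid marker, at 0.79 there and −3.11 to −0.82 elsewhere. miR-142-3p was also highest there, at −2.42, but miR-155 had its lowest level there, at −5.71, and miR-342-3p, at −3.42, lay below control 1 (−2.85) and control 4 (−3.31). The sum of the erythroid markers miR-451 and miR-144 was 1.28 on control 2 and −0.53 to 0.60 elsewhere. It was mostly miR-451, as miR-144 was detected on 1 array. miR-486, counted here with muscle but also an erythroid miRNA, went the other way. It was lowest on control 2, at −1.64 against −1.55 to −0.52 elsewhere. The endothelial sum was 0.68 against 0.85 to 1.42, and the smooth muscle sum −3.01 against −2.86 to −2.16, so both were also lowest on control 2. All these sums are of scaled levels, and control 2 had the largest divisor, 618. Before that division its muscle, endothelial and smooth muscle sums were not the lowest. The stromal sum on control 2 lay within the range of the others. The liver list was miR-122 alone, which was at the floor on control 2 and control 3. miR-150, miR-126-5p and miR-145 were detected on 0 arrays. Between groups, the leukocyte sum ranged from −1.28 to 1.07 among controls and from −2.05 to −0.52 among diabetic samples, and 0 of its 3 tested members passed the limma threshold. All 3 had negative log2 differences, diabetic minus control, with a median of −0.80. Of the members not tested, miR-142-3p was detected on 3 control and 0 diabetic arrays, and miR-142-5p on 1 and 0. For miR-342-3p, at −0.80 (limma: SE 0.23, adjusted p = 0.0611), all diabetic arrays lay below all control arrays, as for 0.794% of the tested miRNAs, which is this 1. miR-1, miR-206 and the stromal marker miR-199a-5p are also in the lists by target below. The part of these markers, and of array brightness, in the miR-22 difference was not tested. In bulk RNA, fewer cells of a type and less RNA per cell cannot be told apart.

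**Figure D4:**
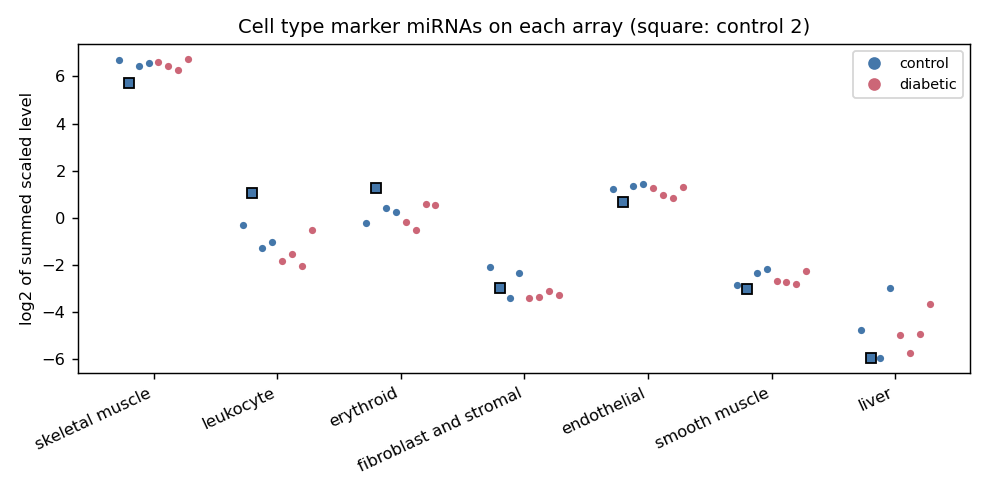
Log2 of the summed scaled level of each list of cell type markers, with 1 point per array (blue control, red diabetic; black-edged square, control 2). Control 2 is lowest for muscle markers at 5.73 and highest for leukocyte markers at 1.07 and erythroid markers at 1.28.

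The miRNAs whose levels followed miR-22 most closely over the 8 arrays were miR-196a, miR-28, miR-30a, miR-30a* and the muscle miRNA miR-1. They had the 5 highest Pearson r among 125 tested miRNAs. For miR-196a r was 0.984 (Spearman rho 0.833), for miR-28 0.981 (0.929) and for miR-30a 0.980 (0.929). For miR-30a*, the other strand of the miR-30a hairpin, r was 0.974 (0.762) and for miR-1 0.972 (0.881). These r are descriptions: they were picked as the highest, all levels of an array share 1 scaling factor, and the median r over the 125 was 0.417. All 5 had their lowest scaled level on control 2, as miR-22 did. Before scaling, neither miR-22 nor any of the 5 was lowest on control 2. On control 2 miR-1 was at 4.11, against 4.63 to 4.996 on the other arrays, and miR-30a at 1.09, against 1.60 to 2.09. Without control 2 and diabetic 4, the arrays farthest from the median of miR-22, r was 0.806 for miR-196a, 0.885 for miR-28, 0.911 for miR-30a, 0.809 for miR-30a* and 0.753 for miR-1. Without control 2 alone, 3 of the 5 were still among the 5 highest, miR-30a, miR-28 and miR-196a. With quantile normalization 2 were, miR-30a* (r = 0.932) and miR-196a (r = 0.865), while r was 0.724 for miR-28, 0.655 for miR-1 and 0.330 for miR-30a. The log2 differences of the 5 between groups were 0.24 to 0.36, and none passed the limma threshold (adjusted p 0.498 to 0.699).

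**Figure D5:**
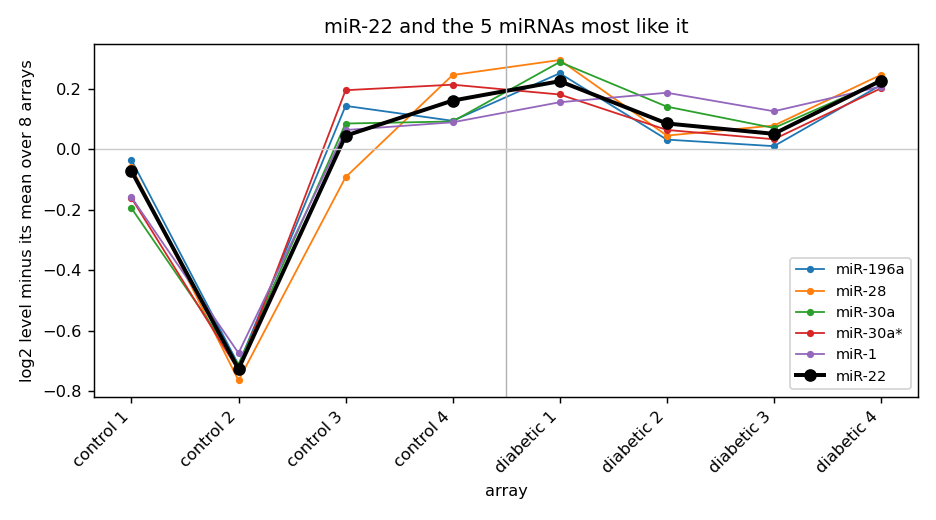
Log2 level minus its own mean over the 8 arrays, for miR-22 (black) and the 5 miRNAs with the highest r to it; lines only join the points of 1 miRNA, and a grey line divides control from diabetic arrays. After scaling, all 6 are lowest on control 2.

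At the other end, miR-714 (r = −0.934) and miR-15b (r = −0.789) ran most against miR-22. miR-714 was at the floor on 6 of 8 arrays and above it only on control 1 (−4.89) and control 2 (−3.99), so its r rests on these values. miR-15b was highest on control 2, at −0.76, against −2.66 to −1.61 elsewhere, and its r was −0.336 without control 2 and diabetic 4.

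Other miRNAs known to repress HDAC4 or SIRT1 were taken as a list of 11, of which 7 were tested. Limma called 1 of the 7 higher and 0 lower, where the share over all tested miRNAs was 4.76%. Their median log2 difference was −0.10 against −0.06 over all tested miRNAs, with 3 positive and 4 negative. The list median was 0.22 when all mouse probes entered the percentile, 0.12 over the miRNAs detected on all 8 arrays and 0.10 without diabetic 2. The called member was miR-29b. Its log2 level was −1.08, −0.95, −0.23 and −0.81 on control 1 to control 4 and 0.27, 0.17, 0.22 and 0.23 on diabetic 1 to diabetic 4, with no overlap. The log2 difference was 0.99 (limma: SE 0.22, adjusted p = 0.0283). Unlike miR-22, miR-29b kept its difference without control 2 (0.93), although with 1 array fewer its call was lost (limma adjusted p = 0.0568). Over 20 alternatives the limma adjusted p ran from 0.00528 to 0.334 and was under the threshold in 12. Of the 8 alternatives that leave out 1 array, those without control 3 or control 4 kept the call. Whether its difference exceeds that of miR-22 was not tested.

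In the HDAC4 list, with 5 of 5 members tested, the muscle miRNAs miR-206 and miR-1 had differences of opposite sign, neither past the threshold. The log2 difference of miR-206, known for its rise in regenerating muscle, was −1.33 (limma: SE 0.44, adjusted p = 0.132), with diabetic 4 at −1.75 and the other diabetic arrays between −0.01 and 0.20. That of miR-1 was 0.34 (limma: SE 0.22, adjusted p = 0.518). All diabetic arrays of miR-1 lay above all control arrays, as for 7.94% of the tested miRNAs. The margin was small, from 4.88 on control 4 to 4.91 on diabetic 3. In the SIRT1 list, 2 of 6 members were tested and neither passed. The log2 difference was −0.66 for miR-199a-5p (limma: SE 0.27, adjusted p = 0.237) and −0.10 for miR-34a, a miRNA induced by p53 (limma: SE 0.25, adjusted p = 0.869). miR-132, miR-9 and miR-217 were detected on 0 arrays.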

How the data were processed

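Per the file headers, 8 1-colour Agilent arrays (mouse probe design naming mm9) lay on 1 slide, were scanned once and were read with Feature Extraction 10.5. The authors deposited scanner output with an intensity for each spot, background-subtracted with spatial detrending and not normalized between arrays. Flags and a total intensity per miRNA were deposited beside it. Control arrays lay in slide row 1 and diabetic arrays in row 2, so row and group cannot be told apart.

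Outlier spots were dropped, spots averaged per probe, arrays scaled as the report says, and probes averaged per miRNA. Scaled levels under 0.0162, the 1st percentile among levels of detected miRNAs, were set to that value, and log2 was taken. The 126 miRNAs detected on at least 4 arrays were fitted with limma 3.58.1 in R 4.3.3 (group as the single term, Benjamini-Hochberg adjustment); the step was tested on simulated data. The number of arrays limits the precision. RNAfold was version 2.7.2, and figures were drawn with matplotlib 3.10.9. Because gMeanSignal was not among the columns, normexp (offset 50) used the median signal. Named miRNAs are the 2 strands, the 5 highest and 2 lowest r to miR-22, the list members past the threshold with the 2 smallest p per target, and detected markers; miR-199a-3p matched no entry, and 1 list by target is not reported here. Members, lists and tests were chosen with earlier results of these data known. Replicate numbers did not pair the arrays by the check given under the processing alternatives.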

Additional observations from a re-analysis of the deposited data

Results flagged for a closer look

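Of 28 groups of 4 arrays examined, 2 had a value far from the other 3, where chance gives about 1 in 20 for a single group. The groups share arrays and scaling and include miRNAs picked by their r, so the count is no test. The brightness of control 2 (log2 of the 75th percentile) was 9.27, against 8.27 to 8.39 on the other control arrays. For probe A_54_P1309 of miR-22, diabetic 4 was at 1.26, against 1.28 on the other 3 diabetic arrays, a gap that stands out because those 3 differ by less than 0.01. Spots of this probe on diabetic 4 had a coefficient of variation of 6.24%, which is larger than the gap.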

How the results depend on the processing

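Of 23 alternatives, 22 left the log2 difference of miR-22 within 1 replicate SD of the reported 0.30. That SD was 0.29, about as large as the difference. A setting could therefore remove most of the difference and still count as within it. The difference was 0.62 with the percentile over all mouse probes and 0.08 without control 2 and diabetic 4. It was 0.10 to 0.40 when 1 array was left out. That of miR-22* ran from −0.15 to 0.20 when 1 array was left out and was 0.52 with quantile normalization, at levels near background. The list median for HDAC4 and SIRT1, −0.10 as reported, was 0.22 with the percentile over all mouse probes and −0.24 to 0.10 when 1 array was left out. Calls by limma, 6 in all, were 0 with no scaling, 2 (2 higher) with no filter, 10 with the brightest probe (2 lower), and 3 (3 higher) without control 2 and diabetic 4, a pair chosen after seeing the data. Lower calls, 0 as reported, were 1 with the percentile over all mouse probes or the scanner total, 2 with the median of detected probes or detection on all 8 arrays, and 3 with normexp. Leaving out 1 array gave 2 to 10 calls (2 to 7 higher, 0 to 3 lower): 2 without control 1, control 2, diabetic 1, diabetic 2 or diabetic 3, and 10 without control 3. Of the 5 miRNAs most like miR-22, 3 to 5 were among the 5 highest when 1 array was left out, and 2 with quantile normalization. The cause of these shifts was not tested. Some settings also had fewer arrays or a different number of tested miRNAs. With the replicate number as a block there were 10 calls (7 higher, 3 lower). The difference of miR-22 stayed 0.30, which such a block cannot change when groups are of equal size. Deviations of same-numbered arrays correlated at 0.21, 0.08, 0.51 and −0.29 for numbers 1 to 4, and 4 of 8 arrays correlated best with their own number, so the numbers were not taken as pairs. Dim signal limits miR-22*, and all arrays shared 1 slide.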
